A study of Mus musculus with 4 samples.

Results

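Laminin chains and nidogens of CD31-positive, CD45-negative mouse spleen cells were compared between cells that showed an ACKR4 reporter signal and cells that did not. The set held 10 of the 30139 gene names on the array, read by 13 of its 39429 non-control probes, and was taken by gene name: the alpha chain genes Lama1, Lama3, Lama4 and Lama5, the beta chain genes Lamb1, Lamb2 and Lamb3, the gamma chain gene Lamc1, and the nidogen genes Nid1 and Nid2. RNA was measured on 1-colour Agilent arrays, 4 in all, with 2 of ACKR4-positive and 2 of ACKR4-negative cells. All mice were Ackr4GFP/wt, heterozygous for green fluorescent protein at the Ackr4 locus, and both groups therefore carried that allele. The ACKR4-positive group held living, CD45-negative, CD31-positive spleen cells with the reporter signal, and the ACKR4-negative group held such cells without it. Each of 2 independent sorts pooled spleens of 2 to 3 mice and gave 1 array per group. Age and sex of the mice are not given in the sources used here.

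Laminins are secreted trimers of an alpha, a beta and a gamma chain, and a trimer is named by the numbers of its 3 chains. They form the cell-facing sheet of the basement membrane, where the alpha chain carries the main sites for integrins and dystroglycan. Nidogens bind the gamma 1 chain and link this sheet to collagen IV. In adult blood vessels, endothelium is best known for laminins 411 and 511, while laminin 111 is best known from embryonic and epithelial basement membranes. The short alpha 4 chain lacks the amino-terminal domain through which full-length chains join into a network.

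Of these 10 genes, 9 were tested. By limma, 1 was called higher in ACKR4-positive cells, against 1.91% of all tested genes, and 4 lower, against 3.71%. Lama1 and Lamb1 were tested only through the group where they were higher, so for these a difference was built into passing. In the main processing Lama1 was higher by a bound of at least 46.7-fold, while Lama4, Lama5, Lamb1 and Nid2 were lower. With another background correction (normexp), the log2 fold change of Lama1 was 3.39. Lamb2, Lamc1 and Nid1, which encode the beta 2 chain, the gamma 1 chain and nidogen 1, carried signal in both groups and were not called. RNA for the beta 1 chain was not well above background in ACKR4-positive cells, and RNA for the alpha 1 chain was not in ACKR4-negative cells. From the RNA detected, ACKR4-positive cells thus held all chains of laminin 121 but not of laminins 411 and 511, and ACKR4-negative cells held all chains of laminins 411 and 511 but not of laminin 121. Both groups held all chains of laminins 321, 421, 423, 521 and 523. With a looser detection flag, laminins 411 and 511 in ACKR4-positive cells and laminin 121 in ACKR4-negative cells were uncertain rather than lacking a chain.

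The probes that read these chains are 60-base oligonucleotides, and their first 30 bases are shown because each value below is the brightness of 1 such sequence. The mm9 positions in the files are chr17:68171924-68171983 for Lama1, chr10:38825794-38825853 for Lama4, chr2:179911079-179911138 for Lama5, chr12:32014411-32014470 for Lamb1, chr9:108392189-108392248 for Lamb2, chr1:155066156-155066215 for Lamc1, chr13:13604435-13604494 for Nid1 and chr14:20630490-20630549 for Nid2. Exon or UTR annotation of these positions was not used here.
Lama1: atgttgaactaaagccacacggacaacaga
Lama4: ttggatgtagactcagaagtgaaccatgta
Lama5: tttgttcctcctgcccaacaactgtcagta
Lamb1: ccgaggcagtcatctacaaataacccatca
Lamb2: gccctgaaactgaaacgggcaggaaatagc
Lamc1: actgtggcccttttcaatgtgccttcactt
Nid1: cagatgtatacaagtattggatgattcctc
Nid2: acagtggaaaaggaattggccattatgagt

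A level is the mean log2 signal of a probe's unflagged spots minus the array's 75th percentile, so a level of 0 equals that percentile. The 75th percentile was a signal of 949 and 590.3 on the ACKR4-positive arrays and 770 and 656 on the ACKR4-negative arrays, and 54.9% to 58.3% of probes were well above background. Control RNA spiked into the samples had a median signal of 837 on ACKR4-negative replicate 1 and of 2749 to 3489 on the remaining arrays. Ackr4, whose locus drove the sort, had levels of -0.21 and 2.55 in ACKR4-positive cells, against -7.53 and -7.50 in ACKR4-negative cells, where it was not well above background. The endothelial genes Pecam1, which encodes CD31, and Cdh5 were well above background on all 4 arrays. Pecam1 had levels of 3.36 and 2.58 in ACKR4-positive cells and 3.41 and 2.84 in ACKR4-negative cells, and neither gene was called (log2 fold changes of -0.15 ± 0.41 and -0.69 ± 0.33, SE). Of 10 endothelial markers, Kdr, Emcn and Esam were called lower, and the summed level of the list, in units of the array's 75th percentile signal, was 238 and 238 in ACKR4-positive cells, against 406 and 373 in ACKR4-negative cells. Over all 17353 tested genes, limma called 975 (5.62%) at an adjusted p under 0.05, of which 331 (1.91%) were higher and 644 (3.71%) lower in ACKR4-positive cells. With sort number as a replicate block, 1171 (6.75%) were higher and 1484 (8.55%) lower. At an unadjusted limma p under 0.05, 1236 were higher and 1586 lower in the fit without the block.

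Of the 10 genes, 9 passed the filter for signal above background in at least 1 group, and Lamb3 did not. Lama1 passed only through the ACKR4-positive arrays and Lamb1 only through the ACKR4-negative arrays, so for these a difference was built into passing. The call counts were 1 of 9 tested genes higher, against 1.91% of all tested genes, and 4 of 9 lower, against 3.71%. The groups did not overlap for 1 gene that was higher and 6 that were lower in ACKR4-positive cells, while 23.3% and 21.6% of all tested genes did not overlap in these directions. The median log2 fold change was -1.05 over these 9 genes and 0.04 over all tested genes.

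**Figure D1:**
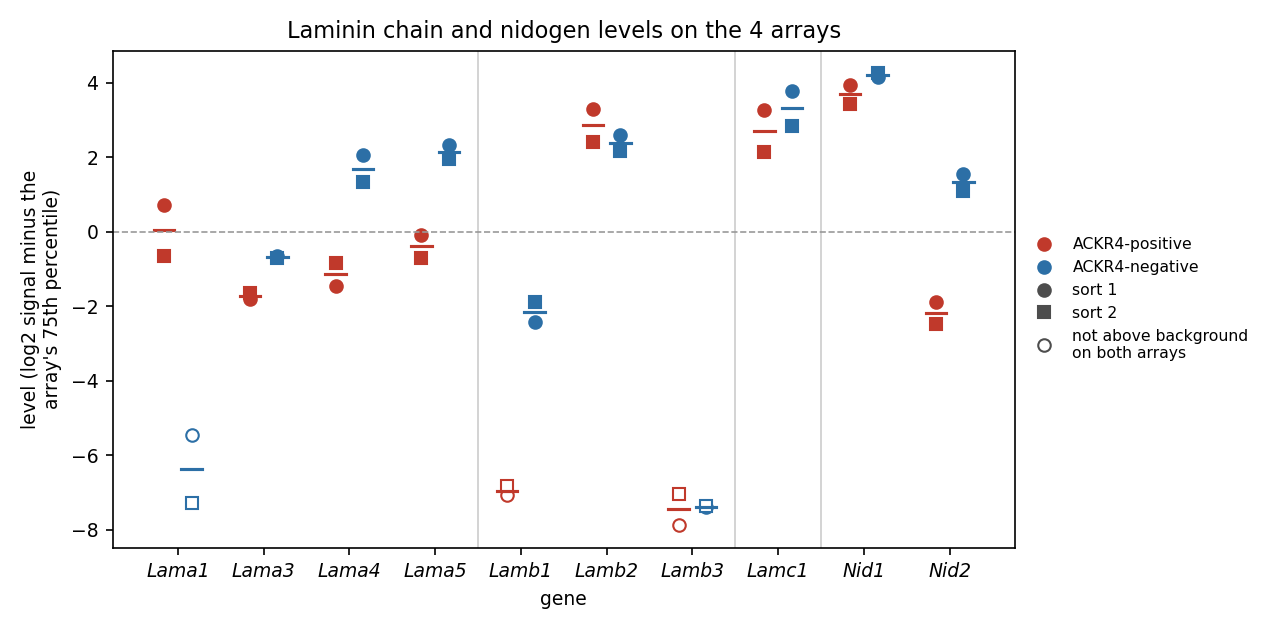
Levels of the 10 genes on each array (y axis, log2 signal minus the array's 75th percentile). Points are arrays, circles sort 1 and squares sort 2, lines are group means, and open points mark genes that did not reach that detection on both arrays of a group. Lama1 lies far higher in ACKR4-positive cells, and Lama4, Lama5, Lamb1 and Nid2 lie lower without overlap.

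Among the alpha chains, Lama1 had levels of 0.72 and -0.65 in ACKR4-positive cells, against -5.46 and -7.27 in ACKR4-negative cells. The groups were separated in both sorts. The processed signal before scaling, from which background had been removed, was 1566 and 376 on the ACKR4-positive arrays and 17.5 and 4.24 on the ACKR4-negative arrays. The log2 fold change was 6.40 ± 0.80 (SE, n = 2 arrays per group, limma adjusted p = 0.0242). Because Lama1 was not well above background on either ACKR4-negative array, the difference is given as a bound of 46.7-fold. It was computed against each array's lowest level well above background, or against Lama1's own level where that was higher. This bound and each later one hold for the main processing and carry no sampling error. The call was lost without ACKR4-positive replicate 1 (log2 fold change 5.71, limma adjusted p = 0.0555), and normexp background correction gave 3.39.

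Lama4, the short alpha chain of endothelial and other mesenchymal basement membranes, had levels of -1.46 and -0.83 in ACKR4-positive cells, against 2.06 and 1.32 in ACKR4-negative cells. It fell by 2.84 ± 0.42 on the log2 scale (SE, limma adjusted p = 0.0355), with both ACKR4-positive arrays below both ACKR4-negative arrays. The call was lost without ACKR4-negative replicate 1, ACKR4-negative replicate 2 or ACKR4-positive replicate 1 (limma adjusted p up to 0.126). Lama5, the full-length alpha chain of mature endothelium, had levels of -0.08 and -0.70 in ACKR4-positive cells, against 2.34 and 1.94 in ACKR4-negative cells. It fell by 2.53 ± 0.36 (SE, limma adjusted p = 0.0321), and the fall was of like size in sort 1 (-2.42) and sort 2 (-2.65). In every fit that left out an array, Lama5 lost its call (limma adjusted p = 0.0536 to 0.144), while its log2 fold change stayed between -2.85 and -2.22. Both alpha chain genes remained well above background on both ACKR4-positive arrays.

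Lama3, whose product is best known from epithelial laminins, was read by 2 probes that differed. The brighter probe had levels of -1.82 and -1.65 in ACKR4-positive cells, against -0.66 and -0.71 in ACKR4-negative cells. Its log2 fold change was -1.05 ± 0.27 (SE, limma adjusted p = 0.135), which was not called, although the groups did not overlap. With the replicate block the same change was called (limma adjusted p = 0.0340). The dimmer probe had levels of -7.45 and -6.85 in ACKR4-positive cells, where it was not well above background, against -3.75 and -3.09 in ACKR4-negative cells. This probe was tested through the ACKR4-negative arrays alone, so a difference was built into passing. In a fit over all 22183 tested probes it had a log2 fold change of -3.73 ± 0.40 (SE, limma adjusted p = 0.0163), a difference of at least 4.76-fold. The mean of both probes, which includes the dimmer one, gave -2.39 (limma adjusted p = 0.0234).

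Among the beta chains, Lamb1 had levels of -7.08 and -6.82 in ACKR4-positive cells, against -2.43 and -1.89 in ACKR4-negative cells. Its processed signal before scaling was 7.02 and 5.24 in ACKR4-positive cells and 143 and 177 in ACKR4-negative cells, so the positive arrays read at background. It fell by 4.79 ± 0.33 on the log2 scale (SE, limma adjusted p = 0.00928), a difference of at least 11.4-fold. This call held in each fit that left out 1 array (limma adjusted p up to 0.0290), and normexp background correction took it to -1.71 (limma adjusted p = 0.0540). Lamb2 had levels of 3.30 and 2.41 in ACKR4-positive cells and of 2.60 and 2.16 in ACKR4-negative cells, which overlapped. Its log2 fold change of 0.48 ± 0.42 was not called (SE, limma adjusted p = 0.729). Lamb3, an epithelial beta chain gene, was not well above background on any array.

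The gamma 1 chain is part of most laminins. Lamc1 had levels of 3.27 and 2.13 in ACKR4-positive cells and of 3.78 and 2.85 in ACKR4-negative cells. The groups overlapped, and the log2 fold change of -0.62 ± 0.55 was not called (SE, limma adjusted p = 0.736). Both ACKR4-positive arrays were slightly below the ACKR4-negative array of the same sort, with differences of -0.51 in sort 1 and -0.73 in sort 2. Relative to Lamc1 on the same array, Lama5 changed by -1.91 and -1.92 in the 2 sorts and Lama4 by -3.02 and -1.42.

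The nidogen genes also differed from each other. Nid2 had levels of -1.90 and -2.48 in ACKR4-positive cells, against 1.56 and 1.08 in ACKR4-negative cells. It fell by 3.51 ± 0.36 on the log2 scale (SE, limma adjusted p = 0.0162), with differences of -3.47 in sort 1 and -3.56 in sort 2. Its call was lost without ACKR4-negative replicate 1 (log2 fold change -3.27, limma adjusted p = 0.0597). Nid1 had levels of 3.95 and 3.44 in ACKR4-positive cells and of 4.14 and 4.25 in ACKR4-negative cells, with a log2 fold change of -0.50 ± 0.31 that was not called (SE, limma adjusted p = 0.583), although the groups did not overlap. The other Nid1 probes gave -0.55 ± 0.29 and -0.38 ± 0.70 (SE), and the first of them, a 60-base probe whose ends lie at chr13:13530138-13555992 on mm9, crosses a splice junction. Within arrays, the log2 ratio of Nid2 to Nid1 changed by -3.28 in sort 1 and -2.74 in sort 2, ACKR4-positive minus ACKR4-negative (exact permutation p = 0.333, 2-sided, the smallest p that 2 arrays against 2 allow).

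**Figure D2:**
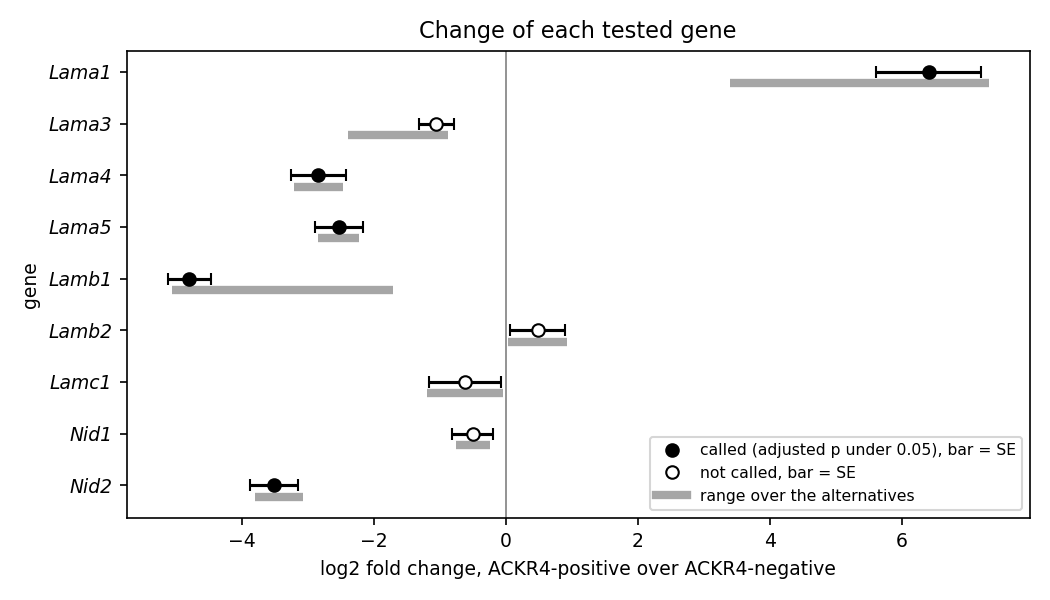
Log2 fold change of each tested gene, ACKR4-positive over ACKR4-negative (x axis). Points with bars are the estimate and its SE, filled where called, and grey bars span the alternatives tried. Lama1 lies to the right of 0 and Lama4, Lama5, Lamb1 and Nid2 to the left over their whole range.

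Outside the 10 genes, Lama2 and Lamc3 encode the alpha 2 and gamma 3 chains. Lama2 had levels of -3.41 and -4.97 in ACKR4-positive cells, above background on 1 array, and of -4.94 and -4.51 in ACKR4-negative cells, above background on both. The processed signal of this probe before scaling was only 25.0 and 28.8 in ACKR4-negative cells, and a dimmer Lama2 probe was well above background on no array. Lamc3 was above background on all 4 arrays, at -0.24 and -1.40 in ACKR4-positive cells and 0.44 and 0.09 in ACKR4-negative cells, and was not called (log2 fold change -1.08 ± 0.48, SE, limma adjusted p = 0.400).

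These detections were set against textbook laminin trimers. A trimer was counted when each of its chains had a probe well above background on both arrays of a group. ACKR4-positive cells held RNA for all chains of 6 trimers, laminins 121, 321, 421, 423, 521 and 523. ACKR4-negative cells held all chains of 11, namely laminins 211, 221, 213, 311, 321, 411, 421, 423, 511, 521 and 523. Thus 5 trimers were shared, laminin 121 was counted in ACKR4-positive cells alone, and 6 were counted in ACKR4-negative cells alone. Of those 6, laminins 211, 213, 311, 411 and 511 lacked the beta 1 chain in ACKR4-positive cells, and laminin 221 was uncertain there because Lama2 was above background on 1 of 2 arrays. Laminin 111 was counted in neither group. Laminins 211, 213 and 221 rested in ACKR4-negative cells on 1 dim Lama2 probe, as the other Lama2 probe was well above background on no array. Every trimer counted in ACKR4-positive cells contained the beta 2 chain. With the scanner's looser detection flag, Lamb1 was detected on 1 ACKR4-positive array and Lama1 on 1 ACKR4-negative array, which left the trimers that hold them uncertain, and laminin 221 was counted in ACKR4-positive cells. RNA of pooled cells does not show which chains were made in the same cell, or whether a trimer was secreted.

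**Figure D3:**
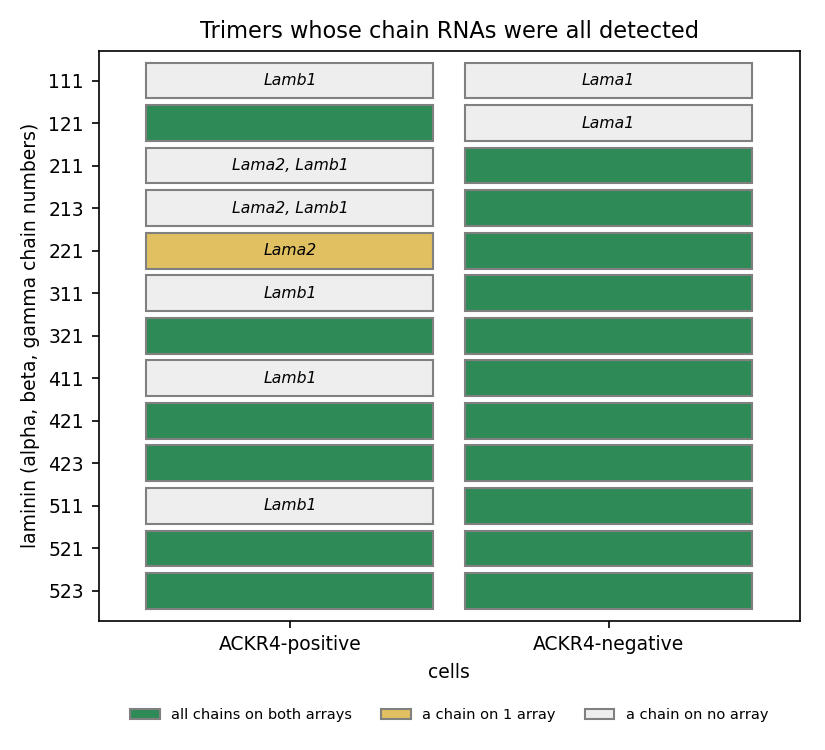
Trimers (rows, named by their alpha, beta and gamma chain numbers) with every chain RNA detected on both arrays of a group (columns), the chains that were not being printed in the cell. ACKR4-positive cells show 6 complete trimers and ACKR4-negative cells 11.

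Partners of laminin in the basement membrane were read from a list of 29 genes, of which 22 were tested. In ACKR4-positive cells none was called higher, against 1.91% of all tested genes, 4 were lower, against 3.71%, and 18 were not called, with a median log2 fold change of -0.41 against 0.04 over all tested genes (unadjusted p under 0.05 for 2 higher and 7 lower). Of all 17353 tested genes, 1236 were higher and 1586 lower at that unadjusted p. Col18a1, the basement membrane collagen from which endostatin is cut, had levels of -3.09 and -4.18 in ACKR4-positive cells, against 4.06 and 3.47 in ACKR4-negative cells (log2 fold change -7.40 ± 0.49, SE, limma adjusted p = 0.00870). Fn1, which encodes fibronectin, stood at -3.51 and -4.88 in ACKR4-positive cells, against 1.19 and 0.37 (log2 fold change -4.98 ± 0.59). Pxdn, a peroxidase that cross-links collagen IV, had a log2 fold change of -1.93 ± 0.27, and Fbln5, a protein of elastic fibre assembly, of -2.01 ± 0.29 (limma adjusted p up to 0.0328 for these genes). The calls of Pxdn and Fbln5 were lost in each of the 4 fits that left out 1 array (limma adjusted p up to 0.177), that of Fn1 without ACKR4-negative replicate 1 (limma adjusted p = 0.0539), and that of Col18a1 in none. Fn1 was well above background on 1 of the 2 ACKR4-positive arrays. It was thus tested through the ACKR4-negative arrays alone, so a difference was built into passing. With the replicate block 6 were lower and 1 was higher, while it called 8.55% and 6.75% of all tested genes in these directions. The genes added were Hspg2, which encodes perlecan, Agrn, which encodes agrin, and, upward, Col4a5, all named after their values were seen. Hspg2 had levels of 2.31 and 0.43 in ACKR4-positive cells, against 5.79 and 4.90 in ACKR4-negative cells (log2 fold change -3.97 ± 0.74, SE, limma adjusted p = 0.0619, and 0.00158 with the block). Agrn had levels of 1.69 and 1.58 in ACKR4-positive cells, against 2.59 and 2.67, and Col4a5 had 2.40 and 1.36, against 0.82 and 0.05.

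All 19 genes of a list of laminin receptors and their partners were tested, of which 2 were called higher, against 1.91% of all tested genes, 2 lower, against 3.71%, and 15 were not called, with a median of -0.10 (unadjusted p under 0.05 for 4 higher and 4 lower). Of all 17353 tested genes, 1236 were higher and 1586 lower at that unadjusted p. Sdc1, the cell surface proteoglycan syndecan 1, had levels of 2.10 and 1.56 in ACKR4-positive cells, against -0.63 and -1.03 in ACKR4-negative cells (log2 fold change 2.65 ± 0.34, SE, limma adjusted p = 0.0253). Sgce, which encodes epsilon-sarcoglycan, had 3.00 and 2.62, against 0.98 and 0.92 (1.86 ± 0.29, limma adjusted p = 0.0400). Itgb4, the integrin chain that pairs with alpha 6 to bind laminin, had levels of -2.94 and -2.72 in ACKR4-positive cells, against -0.33 and -0.04 in ACKR4-negative cells (-2.65 ± 0.29, limma adjusted p = 0.0179). Sdc3, syndecan 3, stood at -2.80 and -2.80, against 0.45 and 0.93 (-3.49 ± 0.30, limma adjusted p = 0.0130). Sdc3 kept its call in each fit that left out 1 array. Sgce lost its call in all 4 (limma adjusted p up to 0.204), and also with quantile normalization and with no filter or a stricter filter on dim probes. Sdc1 and Itgb4 lost theirs in the fits without ACKR4-negative replicate 1, ACKR4-negative replicate 2 or ACKR4-positive replicate 1 (limma adjusted p up to 0.111). With the replicate block 3 receptors were higher and 6 lower, against 6.75% and 8.55% of all tested genes. The additions were Itga1 upward and Itga2, Itga6, Itga7 and Mcam downward. Itga2 and Itga7 were each above background on 1 of the 2 ACKR4-positive arrays. Both were thus tested through the ACKR4-negative arrays alone, so a difference was built into passing.

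**Figure D4:**
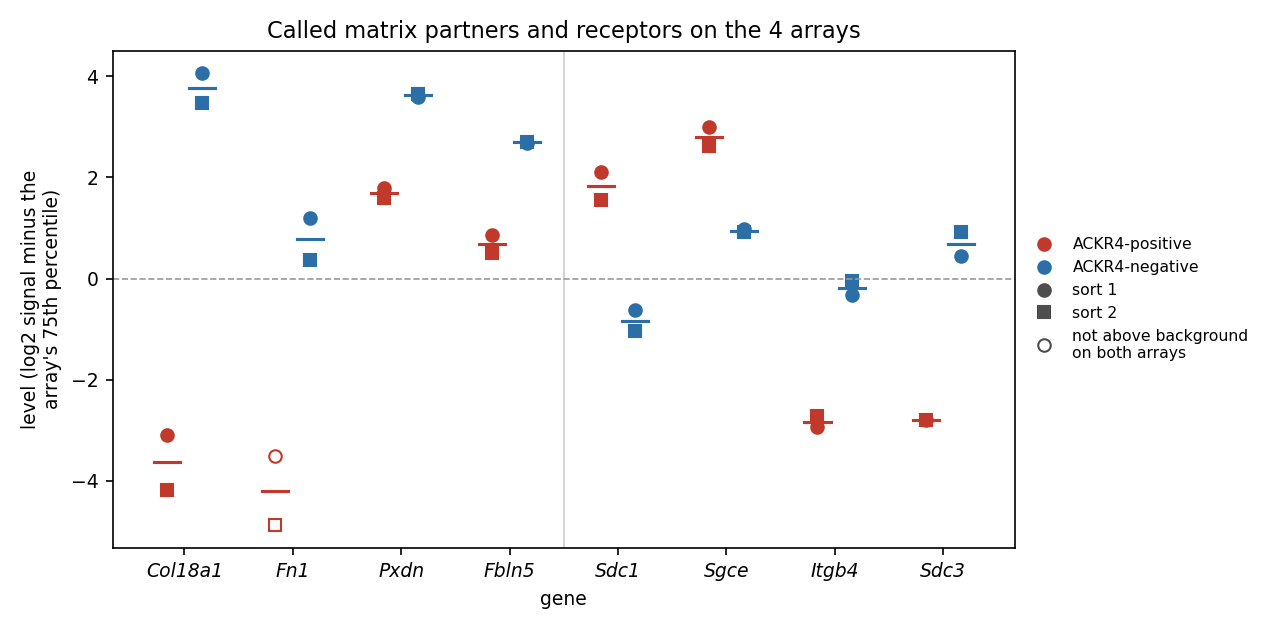
Levels of the called matrix partners (left of the grey line) and laminin receptors (right of it) on each array, drawn as in the plot of laminin and nidogen levels. Sdc1 and Sgce lie higher and the other 6 genes lower in ACKR4-positive cells.

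Enzymes that build the laminin-binding glycan of dystroglycan gave 0 calls in either direction by limma among 12 tested, with a median of 0.37 and an unadjusted p under 0.05 for 2, both higher. Over all 17353 tested genes, 1236 were higher and 1586 lower at that unadjusted p. With the replicate block, 3 of the enzymes were called higher, against 6.75% of all tested genes. Among them was Pomk, a kinase of this glycan's core (log2 fold change 1.55 ± 0.32, limma adjusted p = 0.0800, and 0.0193 with the block). Pomk had levels of 1.02 and 1.52 in ACKR4-positive cells, against -0.17 and -0.39 in ACKR4-negative cells. Proteases known to cut laminins or nidogens also gave 0 calls among 6 tested, with an unadjusted p under 0.05 for 2, both lower. These were Mmp2 (-2.39 ± 0.56) and Bmp1 (-1.44 ± 0.34), which the block called, together with Mmp14 upward (1.01 ± 0.85). Over all tested genes the block called 8.55% lower and 6.75% higher. Mmp14 gave 0.08 without ACKR4-positive replicate 1 and 1.94 without ACKR4-positive replicate 2. Mmp2, above background on 1 of the 2 ACKR4-positive arrays, was tested through the ACKR4-negative arrays alone, so a difference was built into passing. Mmp2 gave -3.12 without ACKR4-positive replicate 1, -1.66 without ACKR4-positive replicate 2 and -0.80 with normexp. The list of further laminin chains and the laminin-related netrins held 6 tested genes and 0 calls by limma, with 2 lower at an unadjusted p under 0.05. The block called 2 lower, against 8.55% of all tested genes. Ntng1, one of them, was above background on no ACKR4-positive array and was tested through the ACKR4-negative arrays alone, so its difference is a bound of at least 3.16-fold (limma adjusted p = 0.0655, and 0.0162 with the block).

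Markers of some other cell types also differed between the groups, while others hardly differed or changed direction between sorts. Mural and smooth muscle cells and platelets are themselves known sources of laminin. Of 11 tested mural and smooth muscle genes 4 were called lower, against 3.71% of all tested genes, and the 12 genes listed had a summed level of 18.4 and 11.1 in ACKR4-positive cells, against 87.2 and 124 in ACKR4-negative cells. Rgs5, Myh11 and Cnn1 were not above background in ACKR4-positive cells. Of 12 megakaryocyte and platelet genes 10 were called lower, against the same 3.71%, with sums of 1.28 and 2.78, against 103 and 236. Itga2b, Gp5, Gp6 and Tubb1 were not above background in ACKR4-positive cells. These genes, Myh11 and Cnn1 were tested through the ACKR4-negative arrays alone, so a difference was built into passing. Mesothelial genes had sums of 0.101 and 1.03 in ACKR4-positive cells and of 0.0887 and 0.240 in ACKR4-negative cells. Of the 8 listed, Msln, Upk3b, Krt19, Upk1b and Krt8 were above background on at least 1 ACKR4-positive array and on no ACKR4-negative array. The share of all genes with this pattern was not counted. Wt1 went the other way, above background on no ACKR4-positive array but on at least 1 ACKR4-negative array. Krt18 was above background on at least 1 array of each group, and Lrrn4 on no array. Of 2 tested mesothelial genes, 1 was higher and 1 lower in both sorts, each at an unadjusted limma p under 0.05. Msln had levels of -4.30 and -1.62 in ACKR4-positive cells, against -7.46 and -7.45 in ACKR4-negative cells, a difference of at least 6.12-fold. It was tested through the ACKR4-positive arrays alone and was not called (limma adjusted p = 0.0812, 0.0102 with the replicate block, and 0.410 with normexp). Without ACKR4-positive replicate 1 or 2 it was called (limma adjusted p = 0.0178 and 0.0332). Sinusoidal genes had sums of 413 and 573 in ACKR4-positive cells, against 171 and 132.5 in ACKR4-negative cells. Among 7 tested, Clec4g was called higher, against 1.91% of all tested genes. Their median log2 fold change was -0.18, with 3 higher and 3 lower in both sorts. Macrophage genes had sums of 52.1 and 59.4, against 28.2 and 33.1, with Slc40a1 called higher among 8 tested. The median log2 fold change of the macrophage genes was -0.14, with 2 higher and 3 lower in both sorts. Lymphocyte genes had sums of 4.05 and 5.07, against 4.83 and 5.77, with Lck called lower among 6 tested. The median log2 fold change of the lymphocyte genes was 0.19, with 3 higher and 1 lower in both sorts. Fibroblastic reticular genes had sums of 2.34 and 3.41 in ACKR4-positive cells and of 2.44 and 3.45 in ACKR4-negative cells. By limma 0 of 8 were called (unadjusted p under 0.05 for 1 higher and 3 lower, against 1236 and 1586 of all 17353 tested genes). Erythroid genes had sums of 18.3 and 69.3 in ACKR4-positive cells, against 477 and 28.8 in ACKR4-negative cells. Of 7 tested, 2 were called lower, against 3.71% of all tested genes. Of the 10 listed, 5 were above background on no ACKR4-positive array, and each was above it on at least 1 ACKR4-negative array. Gata1, called lower, was among these 5 and was tested through the ACKR4-negative arrays alone, so a difference was built into passing. The part of these cells in the laminin and nidogen differences was not tested. In such bulk samples, fewer cells of a type and less RNA per cell cannot be told apart.

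RefSeq promoter sequence was at hand for 5 of the 10 genes, among them Lama5 and Lamb1, which both fell. It is shown for these up to the first base of the annotated gene, on GRCm38.p6, at chr2:180225905-180226109 on the minus strand and chr12:31265043-31265145 on the plus strand. Capitals mark the letters of a GC box (GGGCGG) or an ETS core (CGGAAG), searched on both strands with overlaps counted.
Lama5: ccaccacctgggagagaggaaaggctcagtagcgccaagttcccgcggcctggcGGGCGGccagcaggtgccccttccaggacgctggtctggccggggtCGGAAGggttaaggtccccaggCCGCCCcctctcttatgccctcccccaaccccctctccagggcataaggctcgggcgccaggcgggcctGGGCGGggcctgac
Lamb1: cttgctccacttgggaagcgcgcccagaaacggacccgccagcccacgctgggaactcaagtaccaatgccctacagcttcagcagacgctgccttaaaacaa
Motifs were counted in the 250 bases before the promoter's start site, which lies inside the annotated gene for both. That window therefore ran past the bases shown, which number 205 for Lama5 and 103 for Lamb1. In it, Lama5 held 4 GC boxes, 3 of them shown, and 1 ETS core. Lamb1 held 2 GC boxes, neither of them in the bases shown, and 0 ETS cores. Neither gene held a TATA box (TATAAA) in the window. Nid1 and Lamb2, which were not called, held 1 and 0 GC boxes. Of all 32851 promoters, 32.7% held a GC box, 13.6% an ETS core and 12.4% a TATA box in the same window.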

How the data were processed

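The submitters' processing notes name Agilent Feature Extraction 10.7.3.1 as the tool that quantified the spots. Its processed signal is a deposited intensity that, per the file headers, had background and spatial trend removed on each array and dim spots raised to surrogate values, with no scaling across arrays. Probe positions are on mm9, and the 4 arrays share 1 slide and 1 scan. The authors' deposited table (floor 15) was an alternative.

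Non-uniform and outlier spots (1.91% to 1.96%) were dropped, log2 signals were averaged per probe, and each array's 75th percentile was subtracted. Testing required over 50% of a probe's spots well above background on each array of a group. The brightest tested probe stood for a gene. RefSeq named 27502 probes by accession, 3549 by symbol and 404 by synonym, and 7974 kept the file's name.

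limma 3.58.1 in R 4.3.3 (lmFit, eBayes, 2-sided) compared the groups, with Benjamini-Hochberg adjusted p under 0.05 over the tested genes. The procedure was tested on simulated data. With 2 arrays per group, precision is limited, and p-values measure the spread between pooled sorts. The labels give both arrays of a sort the same mouse and replicate number, which pairs them, and the groups' deviations correlated at 0.605.

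Genes and lists were chosen with earlier results of these data known. Named genes were the 10 laminin and nidogen genes, Lama2, Lamc3, Ackr4, called list members (up to 4 by smallest p where fewer were called) and the first 2 markers per cell type. Some genes that this rule takes, and 1 listed trimer, are not reported here. Other markers, and genes called with the block alone, were named after their values were seen. Alternatives covered background correction, scaling, filter, floor, deposited values, probe choice, outlier spots, a trended prior, the replicate block and leaving out each array.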

Additional observations from a re-analysis of the deposited data

How the results depend on the processing

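The 9 tested genes kept their direction in each alternative that gave a value. Lama1 was higher and Lamb1 lower wherever they were tested. The stricter filter on dim probes left both out by construction, which gave 0 genes higher and 3 lower, and left 166 of all genes higher and 280 lower. Among the chains outside the 10 genes, Lama2, at 0.54, turned to -0.24 without ACKR4-positive replicate 1, and ranged up to 1.32 in the other fits that left out 1 array. In such fits Ntn4 ranged over -0.05 to 1.45, Ctss over -0.07 to 2.44 and Pecam1 over -0.55 to 0.24, none of them called. With sort number as a replicate block, 1 gene was higher and 5 were lower, and 1171 and 1484 of all genes. The block added Lama3 and changed no other call among the 10 genes. In fits that left out 1 array, the number of genes called higher was 0 to 1 and the number called lower was 1 to 3, with 1 lower without ACKR4-negative replicate 1, 2 without ACKR4-positive replicate 1 or ACKR4-negative replicate 2 and 3 without ACKR4-positive replicate 2, and over all genes 75 to 294 were higher and 312 to 597 lower. These fits have fewer samples. Counts of complete trimers were 6 in ACKR4-positive and 11 in ACKR4-negative cells, also when 75% of spots had to be well above background, and 7 and 11 with the looser flag. Signal near background limits Lama1 in ACKR4-negative cells and Lamb1 in ACKR4-positive cells, where only bounds under the main processing are given.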
